A study of Mus musculus with 16 samples.

Results

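The 9 genes that encode the membrane-bound adenylyl cyclases, Adcy1 to Adcy9, were followed in dorsal root ganglia (DRGs) of mice with and without nerve injury and with and without desipramine (DMI). The genes were chosen by name, and each of the 9 was found among the 52636 Ensembl genes counted in every library. The 16 libraries each came from the L3 to L6 DRGs of 1 male C57BL/6J mouse aged 3 to 4 months, in 4 groups of 4 mice (SNI-Saline, SNI-DMI, Sham-Saline, Sham-DMI). For SNI, a spared nerve injury, the common peroneal and sural branches of the left sciatic nerve were ligated and cut while the tibial branch was spared, and Sham mice underwent surgery without the nerve lesion. DMI, a tricyclic antidepressant that blocks the reuptake of noradrenaline, was injected intraperitoneally 2 times daily over 3 weeks at a dose of 15 mg/kg, and the other mice received saline. By the labels, treatment began 4 weeks after surgery, whereas the methods give 4 months. The pooled ganglia hold injured and uninjured neurons together with glial, vascular and immune cells, so that fewer cells of a type and less RNA per cell cannot be told apart.

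Adenylyl cyclases make cyclic AMP (cAMP) from ATP at the cell membrane. They are switched on by the stimulatory G protein and are mostly held back by inhibitory G proteins, and they differ in what else they read. Adcy1, Adcy3 and Adcy8 are the calcium/calmodulin-stimulated isoforms, Adcy2, Adcy4 and Adcy7 are stimulated by G protein beta-gamma subunits, Adcy5 and Adcy6 are inhibited by calcium, and Adcy9 is the isoform that responds poorly to forskolin. In sensory neurons cAMP acts through protein kinase A and the Epac exchange factors on ion channels and sensitizes nociceptors, and noradrenaline, whose reuptake DMI blocks, reaches adenylyl cyclases through adrenergic receptors.

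The sequences upstream of Adcy9 and Adcy1 are shown because Adcy9 was the member whose transcript fell with DMI and Adcy1 was the member whose values followed Adcy9 most closely over the 16 libraries (Pearson's r = 0.77). Each line gives the 250 bases before the annotated RefSeq start, 5′ to 3′ on the gene's own strand, at chr16:4420499-4420748 on the minus strand and chr11:7063183-7063432 on the plus strand of GRCm38.p6. Capitals mark the GC box GGGCGG or its reverse complement CCGCCC, and the cAMP response element core TGACG or its reverse complement CGTCA.
Adcy9: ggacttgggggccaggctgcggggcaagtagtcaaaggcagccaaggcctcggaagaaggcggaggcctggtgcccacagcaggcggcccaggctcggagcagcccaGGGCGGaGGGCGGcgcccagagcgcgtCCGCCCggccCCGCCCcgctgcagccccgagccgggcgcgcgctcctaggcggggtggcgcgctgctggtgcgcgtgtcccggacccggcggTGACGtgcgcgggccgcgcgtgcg
Adcy1: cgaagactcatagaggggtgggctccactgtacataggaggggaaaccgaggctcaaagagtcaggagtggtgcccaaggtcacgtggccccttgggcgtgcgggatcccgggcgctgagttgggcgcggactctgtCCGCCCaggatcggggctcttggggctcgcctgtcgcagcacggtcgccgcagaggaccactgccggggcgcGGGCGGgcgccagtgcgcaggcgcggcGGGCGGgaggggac
The Adcy9 window had a GC content of 78.8% and held 4 GC boxes and 1 TGACG. The Adcy1 window had a GC content of 71.2% and held 3 GC boxes and no TGACG. A GC box was found in 32.7% of the 32851 windows of this length in the table, TGACG in 17.8% and the full element TGACGTCA in 1.55%, and the median GC content of all windows was 52.4%. Windows were matched for 7 of the 9 members, and TGACGTCA was in none of their windows. A match describes the letters only. Adcy6 and Adcy8 are named without a window.

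The libraries held 41194238 to 73920332 read pairs counted on genes, and both extremes were Sham-DMI libraries. All 9 members passed the filter on low counts in the set of 21371 genes tested, with at least 591 counts in every library except for Adcy4, which had 64 to 255. The sensory neuron markers together reached 9663 to 12225 CPM (counts scaled by the normalized library size, the usual measure of depth-corrected expression). The labels call the tissue spinal cord and the cells DRG, and 4 of the 11 spinal cord markers (Slc32a1, Chat, Olig2 and Opalin) had a mean under 0.1 CPM, with 22.7 to 37.5 CPM for the whole list. The libraries are numbered 17 to 24 with DMI and 33 to 40 with saline, so an effect of that order cannot be told apart from DMI. With saline, SNI mice hold 33 to 36 and sham mice 37 to 40. With DMI, sham mice hold 17 to 20 and SNI mice 21 to 24. The injury contrasts with saline and with DMI are limited in the same way.

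Set on a scale per exon length (RPKM, CPM per kilobase of annotated exon), Adcy5 was the most abundant cyclase transcript in Sham-Saline DRGs with a level of 15 RPKM ± 1.49 (SD, n = 4). Adcy2 followed at 12.5 ± 0.992 RPKM, Adcy1 at 10.6 ± 1.32 RPKM and Adcy9 at 8.35 ± 0.904 RPKM. These are 2 calcium-sensitive isoforms of opposite sign, a beta-gamma-stimulated isoform and the forskolin-insensitive isoform. The lower levels were 5.55 ± 0.063 RPKM for Adcy6, 3.65 ± 0.284 for Adcy3, 2.63 ± 0.257 for Adcy7, 1.94 ± 0.345 for Adcy8 and 0.563 ± 0.198 for Adcy4. Among the 21371 genes tested, Adcy5 stood at the 82.5th percentile of RPKM in Sham-Saline and Adcy4 at the 26.2nd. The soluble cyclase Adcy10, which is not membrane-bound, was counted at 0.0919 to 0.525 CPM.

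Neighbours in this order were not all distinct. In Sham-Saline the ranges of Adcy2 and Adcy1 overlapped (11 to 13.1 and 9.29 to 12.3 RPKM), as did those of Adcy1 and Adcy9 (7.37 to 9.55 RPKM), although within each library the gene ranked higher had the higher value. The other neighbours did not overlap in Sham-Saline. The order was the same in SNI-Saline and Sham-DMI, whereas in SNI-DMI Adcy6 (5.57 ± 0.498 RPKM) stood above Adcy9 (5.34 ± 0.623 RPKM), with overlapping ranges and Adcy6 the higher in 3 of 4 libraries. In SNI-DMI Adcy5 and Adcy2 also overlapped (12.9 to 14.6 and 11.8 to 14.7 RPKM), and Adcy5 was the higher in 2 of 4 libraries. The same pair overlapped in SNI-Saline (12.9 to 14 and 10.6 to 13.5 RPKM), with Adcy5 the higher in 3 of 4 libraries.

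**Figure D1:**
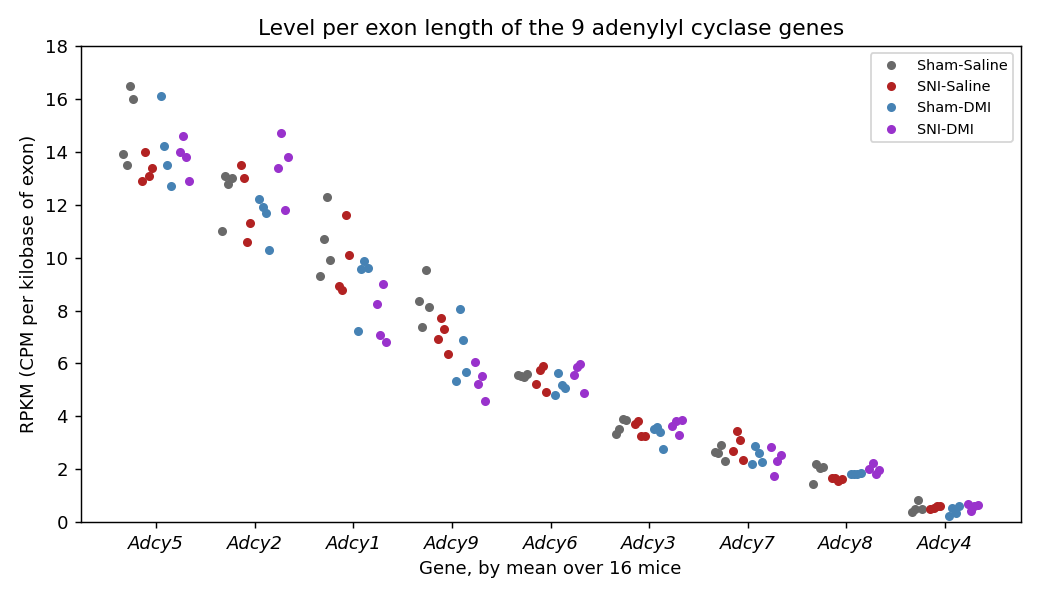
Level per exon length of the 9 cyclase genes in every library, on a linear axis of RPKM from 0, with genes ordered by their mean over 16 mice and 1 point per mouse coloured by group. Adcy5, Adcy2 and Adcy1 lie highest, Adcy4 stays at or under 0.85 RPKM, and the SNI-DMI points of Adcy9 (4.57 to 6.06 RPKM) lie beside those of Adcy6.

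Adcy1, Adcy2 and Adcy5 together made up 60.9% to 66.4% of the summed RPKM of the 9 genes, with a median of 63.3% over 16 libraries. The sum itself with saline was 60.7 ± 4.39 RPKM in sham mice and 56.5 ± 1.96 RPKM in SNI mice, and with DMI 54.5 ± 3.07 and 54.6 ± 1.95 RPKM. The share of Adcy9 with saline was 13.8% ± 1.11 in sham and 12.5% ± 0.597 in SNI mice, and with DMI 11.8% ± 1.66 and 9.77% ± 0.861. The share of Adcy2 was 20.6% ± 1.36, 21.5% ± 2.29, 21.2% ± 1.19 and 24.6% ± 2.28 in the same order of groups. Sums and shares are descriptions and were not tested.

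Adcy9 was the member called as changed with DMI. Its gene (ENSMUSG00000005580) spans chr16:4287529-4420498 on the minus strand of GRCm38, with 5197 bases of annotated exon. In Sham-Saline its levels were 43.4, 38.3, 49.6 and 42.2 CPM in replicates 1 to 4, and in Sham-DMI they were 27.7, 41.8, 35.7 and 29.6 CPM. In SNI-Saline they were 36, 40.1, 38 and 33.1 CPM, and in SNI-DMI 31.5, 27.1, 28.7 and 23.7 CPM. All 4 SNI-DMI values lay below all 4 SNI-Saline values, while 3 of the 4 Sham-DMI values lay below all Sham-Saline values and replicate 2 lay among them.

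DMI treatment under SNI changed Adcy9 from 36.8 ± 3.01 to 27.8 ± 3.24 CPM (SD, n = 4 per group), so that it fell by 24.5%. The log2 fold change was -0.41 with an SE of 0.115 and a 95% interval from -0.65 to -0.16, and the adjusted p was 0.0973 by edgeR's quasi-likelihood test with Benjamini-Hochberg adjustment over 21371 genes and a threshold of 0.1. It was the only member called, 1 of 9, in SNI-DMI versus SNI-Saline, where 2.93% of all genes tested were called and 1.61% were called lower. At an unadjusted p under 0.05 there were 4 of 9 (Adcy1, Adcy7, Adcy8 and Adcy9), beside 18.5% of all genes. The call stood close to the threshold. It was kept in 5 of 8 alternative settings, with adjusted p-values of 0.0217 to 0.124 over the 8. It was lost without any 1 of the 4 SNI-Saline, 4 SNI-DMI or 4 Sham-Saline libraries or without Sham-DMI replicate 3, at an adjusted p between 0.107 and 0.253, while the log2 fold change over all fits without 1 library stayed between -0.46 and -0.34. With each library's trends on gene GC content and length removed, the log2 fold change was -0.46 and the adjusted p 0.111.

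Under sham surgery Adcy9 fell by 22.4% with DMI, from 43.4 ± 4.7 to 33.7 ± 6.39 CPM. The log2 fold change was -0.37 with an SE of 0.114, an interval from -0.61 to -0.13 and an adjusted p of 0.0362 by the same edgeR test. Again it was the only member called, 1 of 9, in Sham-DMI versus Sham-Saline, where 23.4% of all genes were called and 11.9% were called lower. It was also the only member with an unadjusted p under 0.05, beside 30.6% of all genes. All 8 alternative settings kept this call, with adjusted p-values of 0.0168 to 0.0875. The call was lost without Sham-Saline replicate 3 (log2 fold change -0.27, adjusted p 0.162), Sham-DMI replicate 1 (-0.26, 0.144) or Sham-DMI replicate 4 (-0.29, 0.122). The DMI effects under SNI and sham differed by -0.04 on the log2 scale, with an interval from -0.38 to 0.30 and an unadjusted p of 0.804 by the edgeR interaction contrast.

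Some marker lists moved between the same libraries. The summed neutrophil markers with saline were 12.2 to 41.1 CPM in sham and 17.4 to 55 CPM in SNI mice, and with DMI 4.77 to 16.9 and 5.59 to 14.3 CPM. Sensory neuron markers with saline were 9663 to 10421 CPM in sham and 9910 to 10898 CPM in SNI mice, and with DMI 10228 to 12225 and 10517 to 11343 CPM. Satellite glia markers, in the same order of groups, were 2648 to 2898, 2919 to 3358, 2809 to 3412 and 3123 to 3524 CPM. Under SNI the neutrophil sums with DMI thus lay below all those with saline, while under sham the ranges overlapped. The highest sensory neuron and satellite glia sums were higher with DMI, but their ranges with and without DMI overlapped under both surgeries. None of the defining genes of these lists was at 0 in all libraries. Pericyte and smooth muscle markers were at 268 to 314 CPM in Sham-Saline and 229 to 259 CPM in Sham-DMI, without overlap, and at 208 to 279 and 209 to 261 CPM in SNI-Saline and SNI-DMI. The injured sensory neuron markers were at 392 to 431 CPM in Sham-Saline and 455 to 502 CPM in Sham-DMI, again without overlap. The part of these lists in the values of Adcy9 was not tested.

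**Figure D2:**
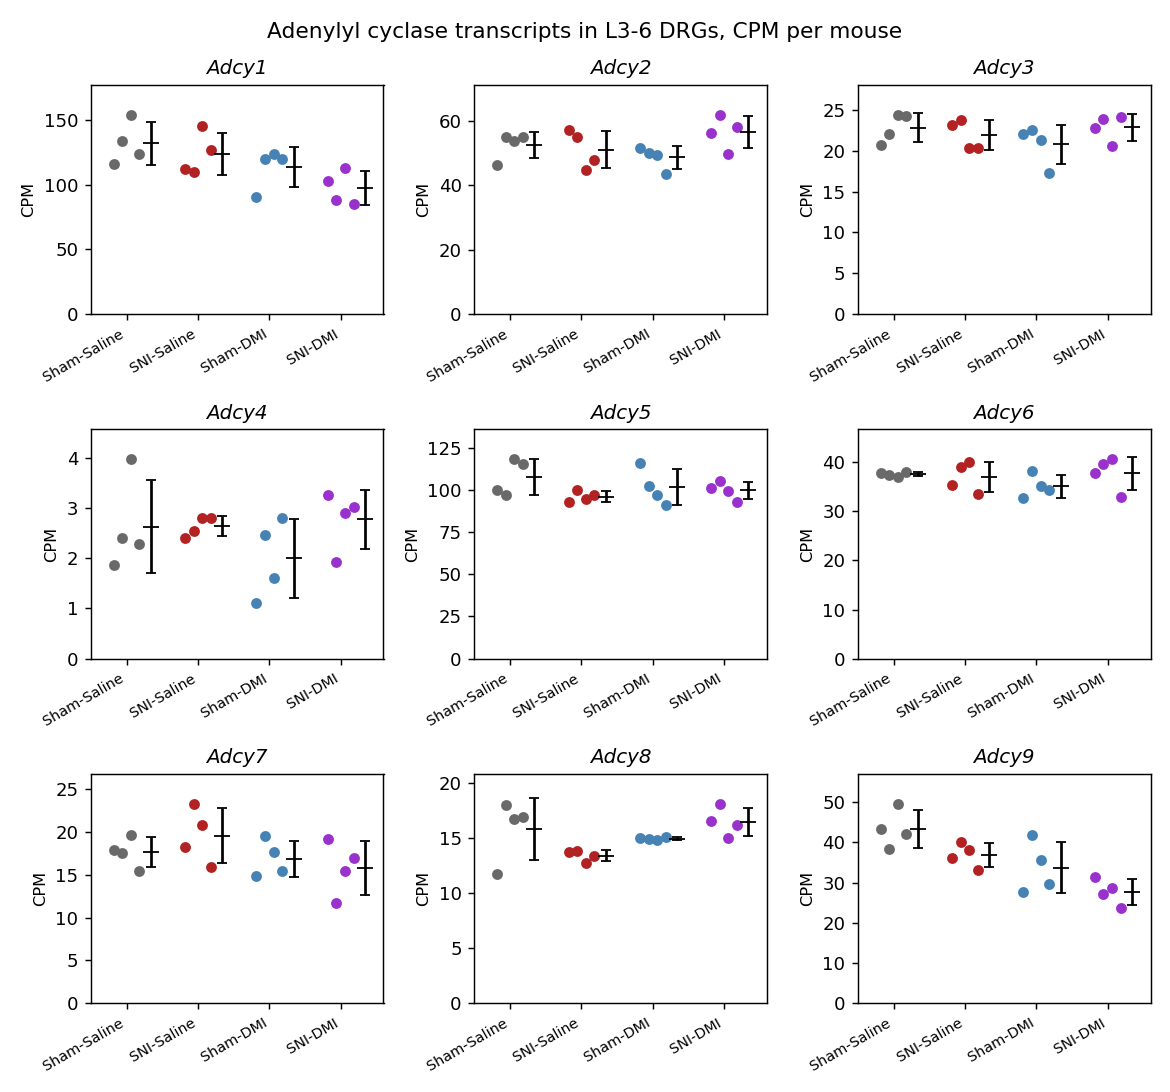
CPM of each cyclase gene in the 4 groups, 1 point per mouse in replicate order, with the mean and SD (n = 4) as a bar beside the points; each panel has its own linear axis from 0. The Adcy9 means step from 43.4 CPM in Sham-Saline to 27.8 CPM in SNI-DMI, and the SNI-DMI points of Adcy8 (15 to 18.1 CPM) lie above those of SNI-Saline (12.7 to 13.8 CPM).

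Among the calcium/calmodulin-stimulated isoforms, Adcy1 couples neuronal calcium entry to cAMP. Its gene lies at chr11:7063489-7178506 on the plus strand. Adcy1 was at 116, 134, 154 and 124 CPM in Sham-Saline and 112, 110, 145 and 127 CPM in SNI-Saline. It was at 90.2, 120, 124 and 120 CPM in Sham-DMI and 103, 88.5, 113 and 85.4 CPM in SNI-DMI. Of the SNI-DMI values 3 lay below all SNI-Saline values and replicate 3 lay within them.

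The Adcy1 mean was 97.5 ± 12.9 CPM in SNI-DMI and 123 ± 16.2 CPM in SNI-Saline. The log2 fold change of -0.34 (SE 0.115) missed the threshold at an adjusted p of 0.133 by edgeR's quasi-likelihood test. It passed in 3 of 8 alternative settings, with adjusted p-values of 0.0568 to 0.158 over the 8, and without Sham-DMI replicate 1 (adjusted p 0.0696). In Sham-DMI versus Sham-Saline its log2 fold change was -0.22 with an interval from -0.46 to 0.02.

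Adcy8, at chr15:64697084-64922296 on the minus strand, had higher values in SNI-DMI than in SNI-Saline. Its levels were 11.7, 18, 16.7 and 16.9 CPM in Sham-Saline and 13.7, 13.8, 12.7 and 13.4 CPM in SNI-Saline. They were 15, 14.9, 14.8 and 15.1 CPM in Sham-DMI and 16.5, 18.1, 15 and 16.2 CPM in SNI-DMI. All 4 SNI-DMI values lay above all 4 SNI-Saline values, and Sham-Saline replicate 1 was the lowest of all 16.

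The log2 fold change of Adcy8 in SNI-DMI versus SNI-Saline was 0.30 (SE 0.101, interval 0.09 to 0.51, 16.4 ± 1.29 against 13.4 ± 0.481 CPM), with an adjusted p of 0.134 by the edgeR test. The value passed with DESeq2 (adjusted p 0.0613) and with edgeR run on just the 8 SNI libraries (0.0609). These were 2 of 8 alternative settings, with adjusted p-values of 0.0609 to 0.234 over the 8. Of 16 edgeR fits without 1 library, Adcy8 passed in 1, with adjusted p-values of 0.069 to 0.345. In SNI-Saline versus Sham-Saline its log2 fold change was -0.24 with an unadjusted p of 0.0272 and an adjusted p of 0.155 in the same edgeR fit. Without Sham-Saline replicate 1 the injury value was -0.35 with an adjusted p of 0.0245, and the DMI value under SNI was 0.31 with an adjusted p of 0.069. The injury value passed in 0 of 8 alternative settings (adjusted p 0.107 to 0.346) and in no other edgeR fit without 1 library (up to 0.35). The DMI effects on Adcy8 under SNI and sham differed by 0.38 (interval 0.08 to 0.68, unadjusted p 0.0154, adjusted p 0.619 by edgeR). The SNI-Saline libraries enter the injury contrast and the DMI contrast under SNI alike.

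Adcy9 and Adcy8 were the 2 of 9 members whose groups did not overlap in SNI-DMI versus SNI-Saline, where 13.3% of all genes did not overlap. No member was without overlap in the other 3 group contrasts, against 15.4% of all genes in SNI-Saline versus Sham-Saline, 5.04% in SNI-DMI versus Sham-DMI and 17.1% in Sham-DMI versus Sham-Saline.

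Adcy3, the cyclase of olfactory and other primary cilia, was at 17.3 to 24.4 CPM over the 16 libraries, with group means of 22.8 ± 1.77 CPM (sham) and 21.9 ± 1.86 CPM (SNI) with saline and 20.8 ± 2.41 and 22.8 ± 1.57 CPM with DMI. Its log2 fold changes were between -0.14 and 0.14 in the 4 group contrasts, and none was called. Adcy3 (chr12:4133103-4213525) shares 1380 bases of exon, or 22.1% of its own, with Cenpo on the opposite strand, which was counted at 5.75 to 8.31 CPM. The use of strand in the counting is not given, so its values are uncertain to that extent.

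Of the beta-gamma-stimulated isoforms, Adcy2 (chr13:68620043-68999541) was at 46.3, 55, 53.7 and 54.9 CPM in Sham-Saline and 57, 54.8, 44.7 and 47.7 CPM in SNI-Saline. It was at 51.5, 50, 49.4 and 43.5 CPM in Sham-DMI and 56.2, 61.8, 49.8 and 58 CPM in SNI-DMI, where 3 of 4 values lay above all Sham-DMI values. The log2 fold change of SNI-DMI versus Sham-DMI was 0.22 (interval 0.04 to 0.39), with an unadjusted p of 0.0182 and an adjusted p of 0.307 by edgeR. The DMI effects on Adcy2 differed by 0.26 between SNI and sham (unadjusted p 0.0434, adjusted p 0.624 by edgeR). Of the Adcy2 exons 4.49% lie opposite Gm35161, which was counted at 0.205 to 0.564 CPM.

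Adcy7, a cyclase known from haematopoietic cells, was at 17.9, 17.5, 19.7 and 15.5 CPM in Sham-Saline and 18.3, 23.3, 20.8 and 15.9 CPM in SNI-Saline. It was at 14.9, 19.5, 17.7 and 15.4 CPM in Sham-DMI and 19.2, 11.7, 15.5 and 17 CPM in SNI-DMI. In SNI-DMI versus SNI-Saline the log2 fold change was -0.31 (interval -0.59 to -0.02), with an unadjusted p of 0.0388 and an adjusted p of 0.244 by edgeR. The lowest of all 16 values was that of SNI-DMI replicate 2, which also stood apart in skeletal muscle markers, at 275 CPM against 3.35 to 4.6 CPM in the other 3 SNI-DMI libraries. Without that library the log2 fold change of Adcy7 was -0.19 (adjusted p 0.541) in SNI-DMI versus SNI-Saline and 0.0285 (0.956) in SNI-DMI versus Sham-DMI by edgeR. Those of Adcy9 in the same contrasts were -0.40 (0.253) and -0.27 (0.472) by edgeR. Skeletal muscle markers were at 76.6 CPM in SNI-Saline replicate 2, which held the highest Adcy7 value, 23.3 CPM. The part of muscle in the values of Adcy7 was not tested. Macrophage markers with saline summed to 122 to 143 CPM in sham and 156 to 269 CPM in SNI mice, and with DMI to 96.6 to 137 and 127 to 243 CPM. The sums overlapped between SNI-DMI and SNI-Saline but not between SNI-Saline and Sham-Saline. By library, the highest sum was in SNI-Saline replicate 2, with Adcy7 at 23.3 CPM. The lowest sum was in Sham-DMI replicate 2, with Adcy7 at 19.5 CPM. The part of macrophages in the values of Adcy7 (chr8:88272403-88329962) was not tested.

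Adcy4 (chr14:55769057-55784095) was the least abundant member and the most variable, at 1.11 to 3.97 CPM over the 16 libraries. Its group means were 2.63 ± 0.925 CPM (sham) and 2.64 ± 0.201 CPM (SNI) with saline and 2 ± 0.78 and 2.78 ± 0.586 CPM with DMI. The log2 fold changes ran from -0.39 in Sham-DMI versus Sham-Saline to 0.47 in SNI-DMI versus Sham-DMI, with intervals that reached from -0.93 to 0.15 and from -0.08 to 1.01. Neither was called. Endothelial markers summed to 148 to 196 CPM (sham) and 161 to 177 CPM (SNI) with saline and to 140 to 160 and 160 to 183 CPM with DMI, and their part in the values of Adcy4 was not tested.

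The calcium-inhibited isoforms had the narrowest ranges relative to their levels, and the highest value of Adcy5 was 1.3 times its lowest. Adcy5 (chr16:35154877-35305738, plus strand) was at 99.8, 96.9, 118 and 115 CPM in Sham-Saline and 92.9, 100, 94.4 and 96.6 CPM in SNI-Saline. It was at 116, 102, 96.8 and 91.1 CPM in Sham-DMI and 101, 105, 99.5 and 92.9 CPM in SNI-DMI. Its log2 fold change after injury was -0.16 (interval -0.31 to -0.01), with an unadjusted p of 0.0378 and an adjusted p of 0.185 by edgeR, and 3 of 4 SNI-Saline values lay below all Sham-Saline values. Without Sham-Saline replicate 2 it passed, at a log2 fold change of -0.21 and an adjusted p of 0.0974. It passed in no other edgeR fit without 1 library (up to 0.521) and in 0 of 8 alternative settings (0.139 to 0.304).

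Adcy6 (chr15:98589973-98610076, minus strand) kept within 32.7 to 40.6 CPM, the narrowest relative range of the 9, with a highest value 1.24 times the lowest. Its 4 Sham-Saline values were 37.9, 37.5, 37.1 and 38 CPM. The log2 fold changes of Adcy6 were between -0.10 and 0.11 in the 4 group contrasts. The intervals of the 2 contrasts with DMI reached from -0.25 to 0.05 under sham and from -0.12 to 0.18 under SNI. Gm29331 lies opposite 8.92% of its exons and had at most 0.0161 CPM.

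None of the 9 members was called after injury in SNI-Saline versus Sham-Saline, where 12.0% of all genes were called by edgeR. At an unadjusted p under 0.05 there were 2 of 9 (Adcy5 and Adcy8) against 23% of all genes. DESeq2 called 0 of the 9, beside 3390 of 38180 genes. On just the 8 saline libraries edgeR called 1, Adcy9, at an adjusted p of 0.0798, beside 3434 of 20563 genes. In all, 7 of the fold changes lay below 0, with a median log2 fold change of -0.06 over the 9. Over all genes the median was -0.001 and 49.9% lay above 0. For Adcy9 the value was -0.24 (interval -0.48 to 0.00, 36.8 ± 3.01 against 43.4 ± 4.7 CPM), with an adjusted p of 0.221.

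The injury markers did separate these groups, since the injured sensory neuron list (Atf3, Sprr1a, Gal and others) summed to 392 to 431 CPM in Sham-Saline and 613 to 683 CPM in SNI-Saline. With DMI the sums of that list were 455 to 502 CPM in Sham-DMI and 614 to 826 CPM in SNI-DMI.

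Under DMI, injury again gave no call among the 9 members, where 0.402% of all genes were called in SNI-DMI versus Sham-DMI by edgeR. Adcy2 and Adcy9 had an unadjusted p under 0.05, against 12.1% of all genes, and DESeq2 called 0 of the 9 beside 502 of 38180 genes. The Adcy9 value was -0.28 (interval -0.52 to -0.04), with an adjusted p of 0.346 that was 0.0953 without Sham-DMI replicate 1. It passed in no other edgeR fit without 1 library (up to 0.724) and in 0 of 8 alternative settings (0.17 to 0.518). The median log2 fold change of the members was 0.11 beside 0.001 over all genes.

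In the DMI contrast under sham, all 9 fold changes lay below 0, from -0.39 (Adcy4) to -0.07 (Adcy7), with a median of -0.11. Over all genes the median was -0.021 and 46.7% lay above 0. Only the interval of Adcy9 excluded 0, and the 9 values come from the same libraries, so their signs are not independent. Under SNI, 6 fold changes lay above 0 and 3 (Adcy1, Adcy7 and Adcy9) below, with a median of 0.05. Over all genes the median was -0.005 and 49.0% lay above 0. No member had an adjusted p under 0.1 in the difference between the DMI effects, and neither did any of the 21371 genes with edgeR (0%). There, 2 members (Adcy2 and Adcy8) and 7.92% of all genes had an unadjusted p under 0.05, and DESeq2 called 0 members beside 16 of 38180 genes.

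**Figure D3:**
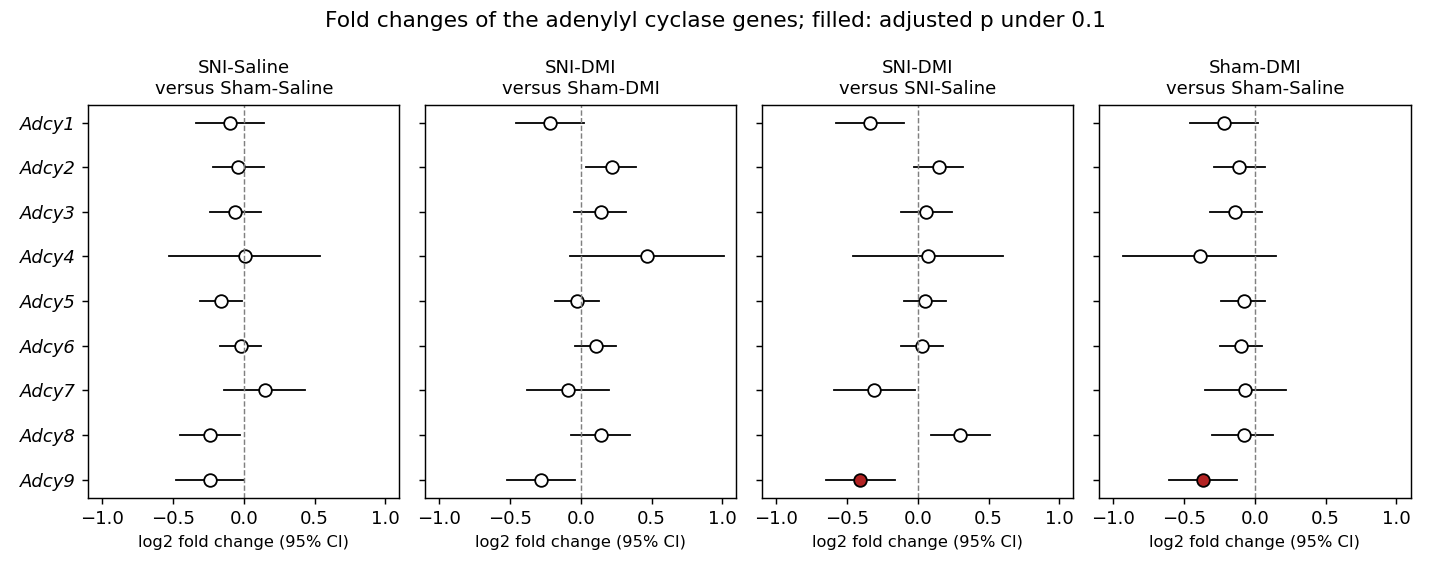
Log2 fold change of each cyclase gene with its 95% interval in 4 contrasts (horizontal axis, no change at the dashed line). Filled points have an adjusted p under 0.1: Adcy9 at -0.41 in SNI-DMI versus SNI-Saline and at -0.37 in Sham-DMI versus Sham-Saline.

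The other genes of cAMP signalling were read from 9 lists with 77 genes, of which 76 were tested. After injury, 20 of the 76 (26.3%) fell and none rose, where 12.0% of all genes were called, 6.18% lower and 5.85% higher. The median log2 fold change of the 76 was -0.12 beside -0.001 over all genes. Of the 16 phosphodiesterases, which break down cyclic nucleotides, 6 fell. These included Pde11a (-0.54, SE 0.123, 69.5 ± 6.19 to 47.7 ± 6.78 CPM, adjusted p 0.0219 by edgeR), Pde4d (-0.43, adjusted p 0.0282, called in 14 of 16 fits without 1 library) and Pde3b (-0.31, adjusted p 0.0174, but -0.19 and 0.172 with GC content and length trends removed).

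Of the 9 subunits and inhibitors of protein kinase A, 3 fell after injury, among them the type II regulatory subunits Prkar2a (-0.28, SE 0.0492, 267 ± 13.8 to 219 ± 3.76 CPM, adjusted p 0.00703 by edgeR) and Prkar2b (-0.24, adjusted p 0.0253, called in 15 of 16 fits without 1 library). Crebbp, the CREB-binding coactivator, fell from 47.6 ± 2.07 to 36.9 ± 4.95 CPM (-0.37, adjusted p 0.0137). Beside the phosphodiesterases and kinase subunits, 4 of 10 kinase anchoring proteins, 2 of 20 Gs-coupled receptors, 2 of 5 inhibitory and 1 of 2 stimulatory G-protein subunits and 2 of 10 exchange factors and CREB family members (Crebbp included) fell, whereas no calmodulin gene and not the soluble cyclase was called. Once the trends on GC content and length were taken out, 11 of the cAMP genes were called, and calls among all genes fell from 2571 to 1018. The cAMP count was 9, 6 and 10 without Sham-Saline replicate 1, 3 and 4, where 1257, 682 and 1218 of all genes were called. It was 5, 7 and 13 without SNI-Saline replicate 1, 2 and 4, where 748, 771 and 1616 of all genes were called.

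With DMI under sham, 25 of the 76 genes fell and 3 rose (36.8% called, where 23.4% of all genes were called, 11.9% lower and 11.6% higher), with a median of -0.13 beside -0.021 over all genes. Phosphodiesterases made up 10 of the 25. Pde3a fell from 5.34 ± 0.719 to 3.17 ± 0.463 CPM (-0.75, SE 0.14, adjusted p 0.00302 by edgeR) and Pde3b from 24.1 ± 1.3 to 19.5 ± 1.41 CPM (-0.31, adjusted p 0.00559). Pkia, an inhibitor peptide of protein kinase A, fell by 0.34 on the log2 scale (adjusted p 0.00473) and Prkar2a by 0.22 (0.00744). The anchoring protein Akap7 fell by 0.27 (0.00732), as did 4 others of the 10 anchoring proteins, and the inhibitory subunit Gnai3 fell by 0.20 (0.00892). The genes that rose were the receptors Crhr1 (0.42, adjusted p 0.0801) and Ptger2 (0.37, 0.0573) and the regulatory subunit Prkar1b (0.13, 0.093), named after their values were seen.

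These counts moved with the processing. With GC content and length trends removed, 10 of the cAMP genes were called with DMI under sham in place of 28. Calls among all genes fell too, from 5010 of 21371 to 3398 of 21324, but by a smaller part. The share of cAMP genes called was above that of all genes in the main fit and below it with the trends removed. Pde3b (-0.13, adjusted p 0.302 by edgeR), Akap7 (-0.08, 0.428) and Gnai3 (-0.09, 0.158) were no longer called, while Pde3a (-0.53, 0.028), Prkar2a (-0.15, 0.0428) and Pkia (-0.14, 0.0903) were. The count was 15 without Sham-Saline replicate 3 and 17 without Sham-DMI replicate 1. Among all genes, 3286 of 21665 and 3420 of 21721 were called in these fits, in the same order. The injury contrast and this contrast share the 4 Sham-Saline libraries.

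With DMI under SNI, 4 of the 76 cAMP genes were called (5.26%, beside 2.93% of all genes), with a median of -0.03. Gnai1 fell from 102 ± 5.27 to 89.9 ± 1.62 CPM (-0.18, adjusted p 0.0674 by edgeR), Pkia from 92.9 ± 5.58 to 76 ± 6.02 CPM (-0.29, 0.0734) and Akap11 from 316 ± 23.4 to 263 ± 14.9 CPM (-0.26, 0.0972). Crebbp rose from 36.9 ± 4.95 to 45 ± 1.77 CPM (0.28, adjusted p 0.08), and the SNI-Saline libraries it is compared with are the same ones in which it was lower than in Sham-Saline. With the trends removed only Crebbp was called, at 0.30 and an adjusted p of 0.0971. In fits without 1 library, these 4 calls were kept 9 (Gnai1), 10 (Pkia), 5 (Akap11) and 9 (Crebbp) times of 16. The count fell to 0 when replicate 1 or 3 of SNI-Saline was left out or any of replicates 1 to 3 of SNI-DMI. In each of these fits 0 of all genes tested were called, so the 0 is not particular to the cAMP genes. The count was 1 without SNI-Saline replicate 4 (38 genes called in all). It was 2 without Sham-Saline replicate 2 or 4 (241 and 226) or Sham-DMI replicate 3 (311). It was 8 without SNI-Saline replicate 2 (984) and 7 without Sham-DMI replicate 1 (1842). The fit on all libraries called 626 genes in all.

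In SNI-DMI versus Sham-DMI 1 of the 76 genes was called (1.32%, beside 0.402% of all genes), the serotonin receptor gene Htr7, which fell from 19.4 ± 0.891 to 16 ± 0.691 CPM (-0.27, SE 0.0601, adjusted p 0.0786 by edgeR). It was called in 5 of 16 fits without 1 library. For the difference between the DMI effects, none of the 76 was called by edgeR and 7 had an unadjusted p under 0.05.

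**Figure D4:**
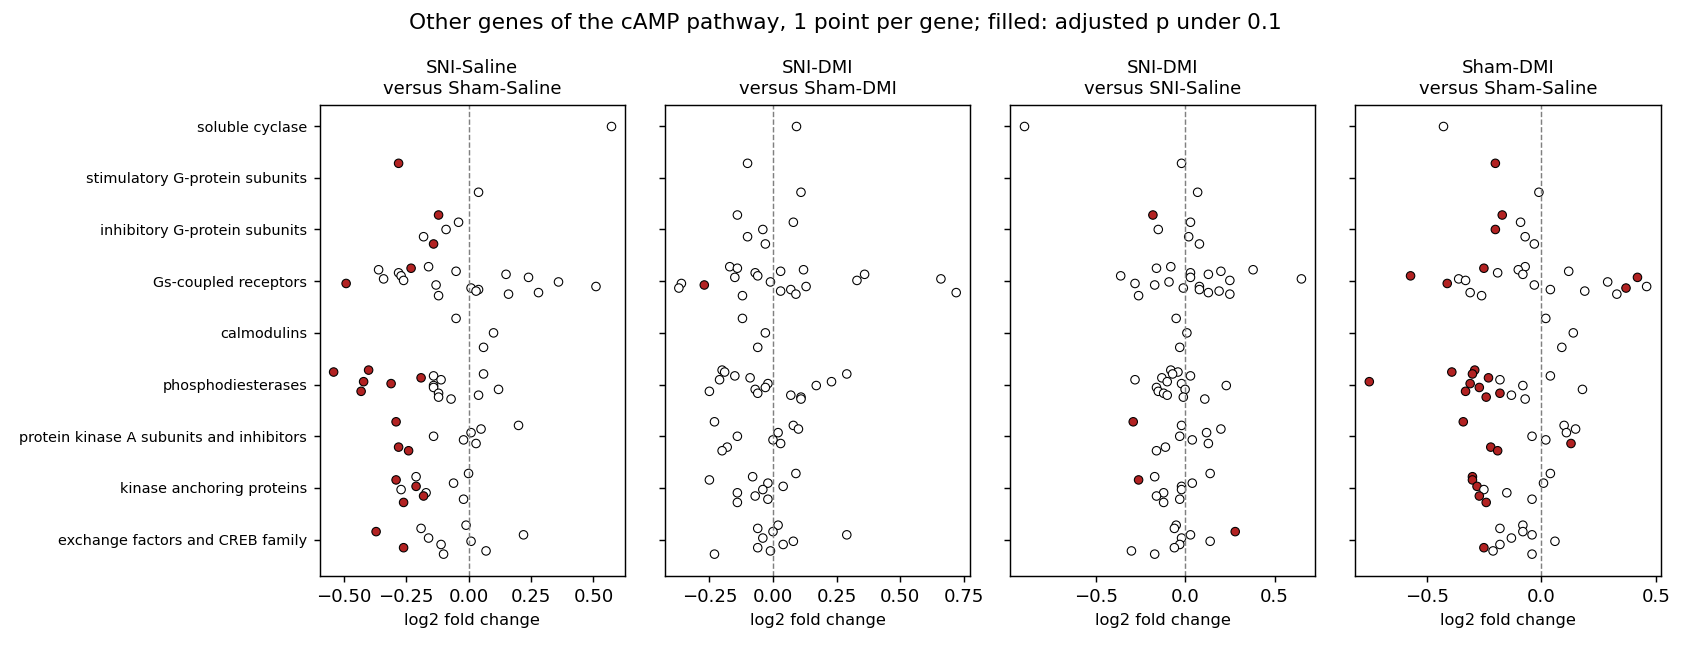
Log2 fold change of the 76 other cAMP pathway genes in 4 contrasts, 1 point per gene in rows by list; each panel has its own horizontal axis, and points are spread vertically only to part them. Filled points have an adjusted p under 0.1: 20 after injury, all lower, 1 in SNI-DMI versus Sham-DMI, 4 with DMI under SNI and 28 with DMI under sham, 25 of them lower.

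Over the 16 libraries, some cyclases varied together. Pearson's r of log2 CPM (prior count 2) was 0.86 between Adcy2 and Adcy3, 0.77 between Adcy1 and Adcy9, 0.65 between Adcy2 and Adcy8, 0.59 between Adcy7 and Adcy9 and -0.50 between Adcy1 and Adcy2, with Spearman's rho of 0.79, 0.64, 0.61, 0.64 and -0.53. These values are given without a p, since the libraries share groups and their numbering follows the groups. Among the 15750 tested genes with a mean of at least 1 CPM, the genes most like Adcy9 were Atp2b3, a plasma membrane calcium pump (r = 0.96), and Tmppe (0.96). The genes most like Adcy1 were Irs1, an insulin receptor substrate, and Cpd, a carboxypeptidase (both 0.93).

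Adcy4 was most like Pecam1 (0.91) and Podxl (0.90), a pair known from endothelium, and Pecam1 is also in the endothelial marker list. Adcy2 was most like Cidea (0.92) and the dopamine receptor gene Drd2 (0.91), Adcy3 like Plppr5 (0.92) and Fbn2 (0.91), and Adcy5 like Mtcl1 (0.94) and Man1c1 (0.92). Adcy8 was most like the potassium channel gene Kcnk2 (0.87) and the G-protein subunit gene Gna12 (0.79), Adcy7 like Gm53 and Grid2ip (both 0.87), and Adcy6 like Nbeal2 and Gm8066 (both 0.91).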

How the data were processed

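RNA from the L3 to L6 DRGs of 16 mice, 1 mouse per library, was sequenced in pairs of 50-base reads. The authors made stranded mRNA libraries, aligned reads to mm10 and deposited whole-number counts per Ensembl gene without normalization. The submitters' processing notes name HISAT2, HTSeq and DESeq2. Versions of HISAT2 and HTSeq, annotation release and use of strand in counting are not given in the sources used here. Reads on genes made up 79.56% to 81.17% of each library, and the lines of unassigned reads (the rest) were left out.

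Symbols, coordinates and exon lengths came from GENCODE M21 on GRCm38, and upstream sequences from RefSeq. Counts were fitted in R 4.3.3 with edgeR 4.0.16 (filterByExpr, TMM, glmQLFit with 1 coefficient per group on all 16 libraries, glmQLFTest) with Benjamini-Hochberg adjustment over 21371 genes and a threshold of 0.1. Alternatives were upper-quartile normalization, no filter, at least 10 counts in every library, DESeq2 1.42.0, edgeR on the 8 libraries of a contrast, the replicate number as a block, removal of each library's smooth trends on GC content and exon length (mgcv 1.9.3, basis size 8), the longest transcript in place of all exons for RPKM, and each library left out in turn. In simulated data of 21108 genes with 200 changed, for SNI-Saline versus Sham-Saline, 78% of 1.5-fold and 94% of 2-fold changes were recovered, with 8.51% false calls. The changed genes had a mean of at least 1 CPM. No cyclase changed by as much as 1.5-fold in a group contrast, and the recovery of smaller changes was not simulated.

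The members and gene lists were chosen with earlier results of these data known. Genes named are the 9 members, for each contrast up to 6 called cAMP pathway genes with the smallest p, and the 2 genes with the highest correlation with each member. Where other genes are named, the text says so or they are overlapping genes or markers. Of the marker lists not given elsewhere, summed levels over the 16 libraries were 4042 to 7095 CPM for Schwann cells and myelin, 2.07 to 6.7 for T and B cells, 597 to 1124 for fibroblasts, 27.8 to 130 for red cells and 3.35 to 76.6 for skeletal muscle, apart from SNI-DMI replicate 2 (275). Gpr64 was matched as Adgrg2.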

Additional observations from a re-analysis of the deposited data

Results flagged for a closer look

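In 2 of 36 groups of 4 values of a cyclase gene, 1 library stood apart from the other 3 by Dixon's criterion, and chance flags about 1 group in 20. Adcy1 was at 90.2 CPM in Sham-DMI replicate 1, where the nearest of the other 3 libraries was at 120 CPM and the farthest at 124 CPM. The gap was 0.886 of the range of the group. Adcy2 was at 46.3 CPM in Sham-Saline replicate 1, with the others at 53.7 to 55 CPM and a gap of 0.854 of the range.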

How the results depend on the processing

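Of 351 log2 fold changes of the 9 cyclases under alternative settings with all libraries, 337 kept their direction and their side of the threshold, and of 720 without 1 library, 680 did. Most of these were not called in the main fit, where only Adcy9 was, with DMI under SNI and under sham. Those calls were kept in 5 and 8 of 8 alternative settings and in 3 and 13 of 16 fits without 1 library. Deviations from the group means of same-numbered libraries correlated at -0.081 to 0.184 (median 0), and 5 of 24 pairs were over 0.1. For libraries of different number the range was -0.248 to 0.169 (median 0.002), with 7 of 72 pairs over 0.1. Whether the numbers of the mice pair the libraries was not tested. With the replicate block, the number of cyclases called with DMI under SNI went from 1 to 0 and of cAMP genes from 4 to 0. In SNI-DMI versus Sham-DMI the cAMP count went from 1 to 0. Calls among all genes went from 626 to 172 and from 86 to 70 in these contrasts. No other cyclase or cAMP count moved by over 1.5 times with the block. Removal of GC content and length trends left 0 cyclases and 1 cAMP gene with DMI under SNI, 11 cAMP genes after injury, 4 in SNI-DMI versus Sham-DMI and 10 with DMI under sham, and together with the block 0, 0, 8, 1 and 8. Among all 21324 genes in these fits, removal left 69, 1018, 174 and 3398 calls in the same order of contrasts. With the block added, 7, 630, 89 and 3119 were left. With DMI under SNI, DESeq2 called 3 cyclases and 9 cAMP genes, edgeR on 8 libraries 3 and 8, and the fit without a filter 2 cyclases. Among all genes these fits called 1859 of 38180, 1812 of 20452 and 568 of 38220, against 626 of 21371 in the main fit. In SNI-DMI versus Sham-DMI, cAMP calls were 8 with DESeq2, 0 on 8 libraries and 0 without a filter, beside 502, 9 and 310 among all genes. After injury, 1 cyclase was called on 8 libraries, beside 3434 of 20563 genes. The cause of these shifts was not tested.

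Signs turned only near 0 in these settings: with the trends removed, log2 fold changes were -0.0161 for Adcy4 after injury and -0.0159 for Adcy5 and -0.00484 for Adcy6 with DMI under SNI, and -0.0157 and -0.00545 for the latter with the block added. The Sham-Saline levels per longest transcript were 4.06 RPKM for Adcy3, 6.23 for Adcy6 and 2.97 for Adcy7, and no gene changed its place in the order. Without 1 library, the number of cyclases called was 0 to 1 after injury (1 without Sham-Saline replicate 1 or 2), 0 to 1 in SNI-DMI versus Sham-DMI (1 without Sham-DMI replicate 1), 0 to 2 with DMI under SNI (2 without Sham-DMI replicate 1), 0 to 2 with DMI under sham (2 without Sham-Saline replicate 1, with Adcy8 at -0.19 and an adjusted p of 0.0904 by edgeR) and 0 to 0 for the difference. In the fits named in brackets, calls among all genes were 1257 and 2647, 850, 1842 and 4350 in that order. The cAMP counts were 5 to 24, 0 to 6, 0 to 8, 15 to 31 and 0 to 0. With DMI under SNI, the counts of 0 include fits in which 0 of all genes were called. Of the fits of SNI-DMI versus Sham-DMI, Sham-DMI replicate 1 left out gave 6 cAMP genes and replicate 4 left out gave 3, while the count was 1 without Sham-Saline replicate 1, SNI-Saline replicate 3 or SNI-DMI replicate 3, and 0 without any other library. Among all genes, 850 and 117 were called without Sham-DMI replicate 1 and 4, against 86 with all libraries. The summed level in Sham-Saline was 58.8 to 62.2 RPKM. Log2 fold changes that turned sign without 1 library ranged from -0.0845 to 0.0253 (Adcy2), -0.12 to 0.29 (Adcy4) and -0.0582 to 0.0225 (Adcy6) after injury, -0.0898 to 0.0281 (Adcy5) and -0.19 to 0.0285 (Adcy7) in SNI-DMI versus Sham-DMI, -0.00195 to 0.21 (Adcy4) and -0.0162 to 0.0911 (Adcy6) with DMI under SNI, -0.12 to 0.0119 (Adcy7) with DMI under sham, and -0.14 to 0.0759 (Adcy9) for the difference. At the lowest depth, counting error alone was 12.5% of the count for Adcy4 and at most 4.11% for the others.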
